A study of Mus musculus with 12 samples.

Results

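The synapse fraction of mouse hippocampus was compared between 1 L library and 1 C library of day 1. These are 2 of the 12 RNA sequencing libraries of the series, chosen by the fraction, the day and the arm that their titles give. The arm L is the trained or learned one and C the control, as far as the column names of the tables say, where the day 1 columns carry the letters T and C. Both libraries came from C57BL6/J mice, and the labels give no further genotype, age, sex or description of the training. Nothing in the sources used here says how the fraction was made, how long after training it was taken or how many animals stand behind a library. The series also holds L and C synapse pairs of days 6 and 20, with 1 library an arm, and 3 L and 3 C homogenates of day 6.

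With 1 library an arm there was no replicate check and no test between arms on day 1. Each value below compares 2 libraries, not 2 conditions. Counts per gene summed to 11605065 in the L library and 13328653 in the C library, over a table of 17130 genes. Levels are CPM (counts relative to library size), scaled by the trimmed mean of M values (TMM, which centres the libraries on the bulk of their genes). Differences are log2 ratios of L over C, with a 95% interval that covers counting error only. A count of 0 allows up to 3 counts, or 0.259 CPM in the L library and 0.225 CPM in the C library. In all, 9311 genes averaged 10 CPM or more, and the shares below are of these.

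Neurons that fire strongly switch on immediate early genes within minutes. Most of these encode transcription factors, such as Fos, Egr1 and Npas4, and others act at the synapse itself, such as Arc, which drives removal of AMPA receptors and whose mRNA travels into dendrites. Glucocorticoids, the adrenal hormones released in stress and with the time of day, act through a nuclear receptor that switches on Sgk1, Fkbp5, Tsc22d3 and Per1. A biochemical synapse fraction holds sealed nerve endings with attached postsynaptic membrane, and is known to carry along glial processes, mitochondria and pieces of small vessels.

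In the L library, activity-induced and glucocorticoid-induced transcripts were lower than in the C library, and so were mRNAs of postsynaptic scaffolds. Markers of endothelium, of meninges and fibroblasts and of microglia were higher in the L library. The medians of these lists were small beside the ratios of single genes such as Arc, which stood at 0.483 times its C level. Over all genes the pair was close: 841 genes (9.03%) lay past 1.25-fold, 106 (1.14%) past 1.5-fold and 14 (0.15%) past 2-fold. The split by direction rested on the scaling: past 1.25-fold, 408 genes were higher in L and 433 lower, against 597 and 256 with library totals alone and 448 and 267 with ratios centred by GC content. The median ratio was -0.01 and the central 95% of genes ran from -0.38 to 0.39. Ratios were below 0 for 53.6% of genes and above 0 for 46.4%. Past 1.5-fold, 64 genes were higher in L and 42 lower (90 and 28 with library totals alone, 70 and 29 with GC centring). Past 2-fold, 4 genes (0.043%) were higher in L and 10 (0.107%) lower. A counting interval wholly below 0 was held by 20.6% of genes, and one wholly above 0 by 13.1%.

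**Figure D1:**
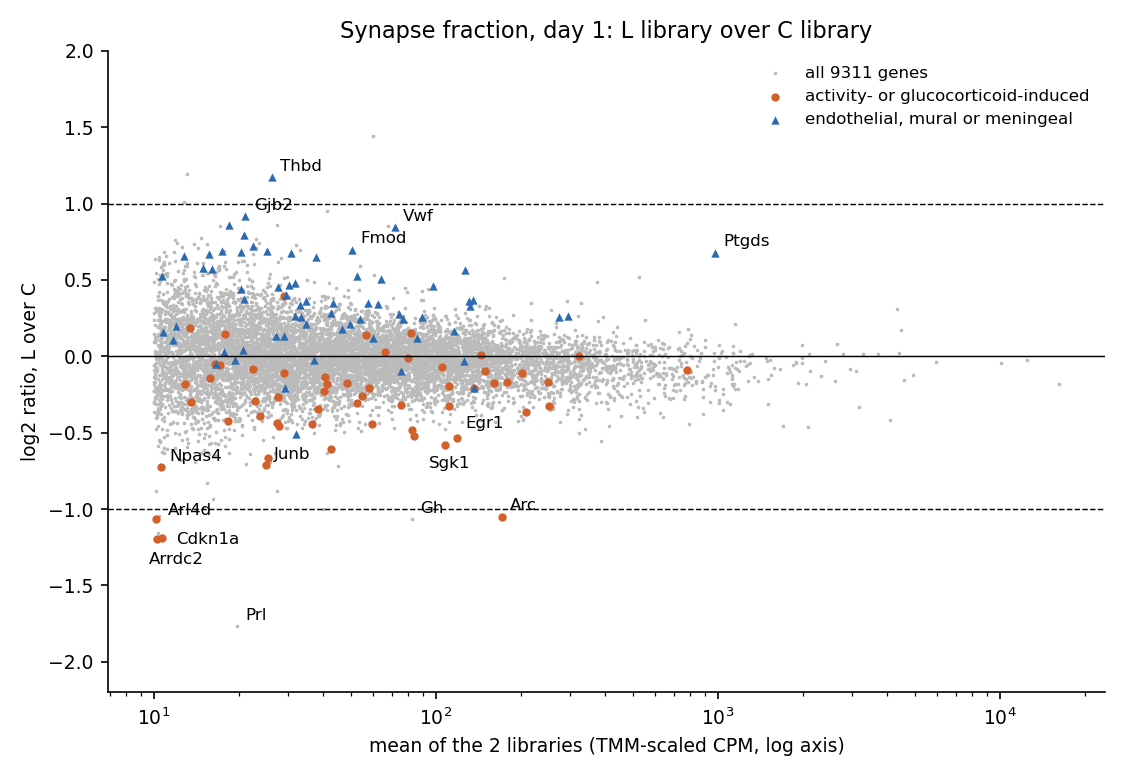
Each point is a gene of the day 1 synapse pair, with its mean TMM-scaled CPM on a log axis across and its log2 ratio of L over C up, and dashed lines at 2-fold. Orange circles are activity-induced or glucocorticoid-induced genes and lie mostly below 0, with Arc at -1.05, while blue triangles are endothelial, mural or meningeal markers and lie mostly above 0, with Thbd at 1.17. A further 2 genes lie below the axis.

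Of 56 activity-induced genes in the table, 38 reached 10 CPM. Of these, 33 were lower in L and 5 higher. Their median log2 ratio was -0.25, against -0.01 over all genes. Summed over all 56, the list held 1987 CPM in L and 2472 CPM in C. Past 1.25-fold, 14 were lower and 1 was higher, where the background is 4.65% of genes lower and 4.38% higher. Past 1.5-fold, 6 were lower, against 0.451% of all genes. The counting interval lay wholly below 0 for 24 members and wholly above 0 for 1, against 20.6% and 13.1% of all genes. Among the 18 members under 10 CPM, 13 were lower in L and 5 higher.

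Arc (chr15:74669083-74672570, minus strand, GRCm38) had 1317 counts in the L library and 3030 in the C library. That is 111.6 CPM in L and 231.2 CPM in C, a log2 ratio of -1.05 (95% interval -1.15 to -0.96). Its interval was narrow, so counting error is small beside the difference, while the spread between animals was not measured. It was the most abundant of the 6 members past 1.5-fold lower, the others being Arl4d, Npas4, Junb, Sik1 and Nr4a1.

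Most of the transcription factors of the list were lower, by unequal amounts. Npas4, which sets inhibitory synapse number after activity, had 7.97 CPM in L and 13.3 CPM in C, a log2 ratio of -0.73 (interval -1.11 to -0.37). Junb, a partner of Fos in the AP-1 complex, had 18.9 CPM in L and 31.1 CPM in C (-0.71, interval -0.96 to -0.48). Nr4a1, an orphan nuclear receptor, had 33.7 CPM in L and 51.5 CPM in C (-0.61, interval -0.79 to -0.43). Egr1, a zinc finger factor widely used as a mark of neuronal activity, had 97.2 CPM in L and 141.2 CPM in C (-0.54, interval -0.65 to -0.43). For these 4 factors the interval left out 0. It did not for Fos, the best known of the class, with 12.1 CPM in L and 14.95 CPM in C (-0.30, interval -0.62 to 0.01).

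Signalling and secreted members followed. Sik1, a kinase that restrains CREB-driven transcription, had a log2 ratio of -0.66 (interval -0.91 to -0.43). Arl4d, a small GTPase of the ARF family, had 6.52 CPM in L and 13.8 CPM in C (-1.06, interval -1.49 to -0.69). Nptx2, a secreted pentraxin that gathers AMPA receptors, stood at -0.44. Bdnf, the neurotrophin, stood at -0.26 and Homer1, a postsynaptic scaffold with a short activity-induced form that these gene counts do not separate, at -0.11. The members above 0 were Klf6 (0.39, interval 0.18 to 0.61), Dusp1 (0.18), Spry4 (0.14), Jun (0.14) and Rheb (0.03), and only Klf6 among them had an interval that left out 0.

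The floor of 10 CPM passed close to the lower end of the list. Arl4d was just inside it, at a mean of 10.2 CPM. Fosb, a further AP-1 factor, was just outside at 9.44 CPM, with 41 counts in L and 202 in C, and a log2 ratio of -2.099 (interval -2.67 to -1.66). Egr4 followed with 63 counts in L and 159 in C. Both were named after their values were seen.

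The glucocorticoid list had 26 genes in the table, of which 22 reached 10 CPM, with 19 lower in L and 3 higher. Its median log2 ratio was -0.22. Past 1.25-fold, 9 were lower and 0 higher, against 4.65% and 4.38% of all genes. The interval lay below 0 for 17 members and above 0 for 1, against 20.6% and 13.1%. Of the 4 members under the floor, 3 were lower and 1 was higher. Dusp1, Errfi1 and Per1 belong to both lists, so the lists are not separate sets of genes, and 57 genes at 10 CPM stood in either.

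Arrdc2, an arrestin-domain protein, had 6.19 CPM in L and 14.3 CPM in C, a log2 ratio of -1.19 (interval -1.62 to -0.82). Cdkn1a, which encodes the cell cycle inhibitor p21, had 6.44 CPM in L and 14.9 CPM in C (-1.19, interval -1.61 to -0.82). Both lay near the floor, at 73 and 76 counts in L. Sgk1, a kinase that raises ion channel number at the membrane, was better counted, with 86.8 CPM in L and 129.8 CPM in C (-0.58, interval -0.69 to -0.47). Tsc22d3, also called GILZ, had 68.9 CPM in L and 96.1 CPM in C (-0.48). Per1, a clock gene with a glucocorticoid-responsive promoter, had 68.5 CPM in L and 98.6 CPM in C (-0.52). Fkbp5, a co-chaperone that dampens the receptor, had a log2 ratio of -0.31. The receptors themselves, which are also counted among the 22 members, were closer. They stood at 0.01 for Nr3c1 (interval -0.09 to 0.10) and -0.17 for Nr3c2 (interval -0.24 to -0.10). In the same pair, endothelial markers summed to 1373 CPM in L and 1103 CPM in C and meningeal markers to 3373 CPM in L and 2493 CPM in C, and the part of this in the activity and glucocorticoid ratios was not tested.

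**Figure D2:**
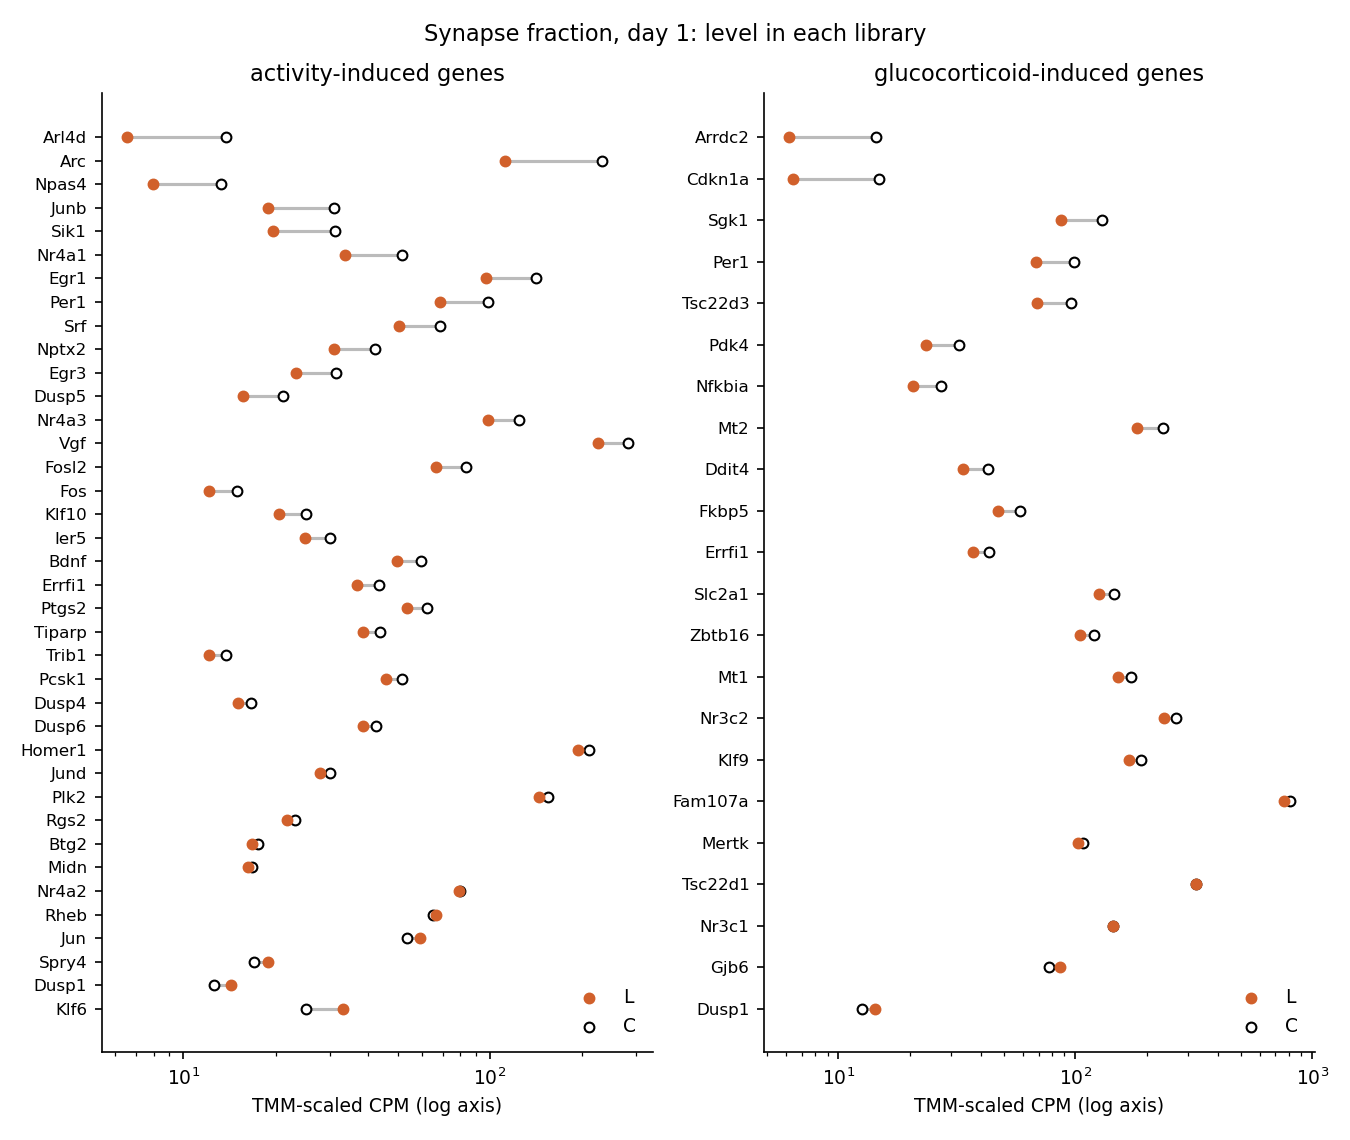
TMM-scaled CPM (log axis) of every activity-induced (left, 38 genes) and glucocorticoid-induced (right, 22 genes) member at 10 CPM or more, with L as filled and C as open circles and genes ordered by their log2 ratio. The filled circle lies left of the open one in 33 of 38 and 19 of 22 genes. The gap is widest for Arl4d, Arc, Arrdc2 and Cdkn1a. The right list also holds the receptors Nr3c1 and Nr3c2.

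The promoters of 5 of these genes are shown. Members under 10 CPM, such as Fosb and Egr4, were not considered. The 5 are the lowest of the other members of the 2 lists with a promoter in the reference table. Arc has no entry there. Each window runs from 250 bases before to 50 after the RefSeq start (GRCm38.p6), written 5′ to 3′ on the gene's strand. Capitals mark the core of the cAMP response element, TGACG on either strand, the site of the activity-dependent factor CREB. The windows lie at chr8:70839671-70839970 (minus) for Arrdc2, chr17:29090729-29091028 (plus, the first of 2 entries) for Cdkn1a, chr11:101665291-101665590 (plus) for Arl4d, chr19:4989922-4990221 (minus) for Npas4 and chr8:84978699-84978998 (minus) for Junb.
Arrdc2: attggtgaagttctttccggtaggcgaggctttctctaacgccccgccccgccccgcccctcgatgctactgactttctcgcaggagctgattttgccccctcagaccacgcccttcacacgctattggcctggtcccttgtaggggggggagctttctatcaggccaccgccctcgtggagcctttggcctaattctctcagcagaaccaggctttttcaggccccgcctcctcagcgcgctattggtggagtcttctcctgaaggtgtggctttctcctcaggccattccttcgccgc
Cdkn1a: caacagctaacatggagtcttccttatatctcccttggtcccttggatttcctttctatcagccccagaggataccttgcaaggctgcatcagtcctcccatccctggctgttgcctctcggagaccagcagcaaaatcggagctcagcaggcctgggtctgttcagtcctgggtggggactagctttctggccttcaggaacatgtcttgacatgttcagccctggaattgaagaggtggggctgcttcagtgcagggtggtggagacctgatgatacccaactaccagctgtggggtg
Arl4d: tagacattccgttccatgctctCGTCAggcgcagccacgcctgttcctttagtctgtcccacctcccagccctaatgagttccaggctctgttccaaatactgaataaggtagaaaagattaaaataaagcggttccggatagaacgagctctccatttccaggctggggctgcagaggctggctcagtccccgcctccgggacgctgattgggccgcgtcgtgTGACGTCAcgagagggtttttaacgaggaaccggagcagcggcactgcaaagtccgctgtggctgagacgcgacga
Npas4: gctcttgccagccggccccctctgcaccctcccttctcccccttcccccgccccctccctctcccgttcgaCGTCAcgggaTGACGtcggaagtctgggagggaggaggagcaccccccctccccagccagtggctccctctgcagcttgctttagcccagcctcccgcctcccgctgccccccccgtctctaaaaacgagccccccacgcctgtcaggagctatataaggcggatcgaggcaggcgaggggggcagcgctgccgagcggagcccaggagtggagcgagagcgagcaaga
Junb: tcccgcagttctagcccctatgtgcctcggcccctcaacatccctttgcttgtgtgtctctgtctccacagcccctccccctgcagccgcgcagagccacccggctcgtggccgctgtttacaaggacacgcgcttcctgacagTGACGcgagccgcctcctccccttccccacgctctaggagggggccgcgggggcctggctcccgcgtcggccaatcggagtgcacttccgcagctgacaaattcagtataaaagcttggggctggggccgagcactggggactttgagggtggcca

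The core motif was found 3 times for Arl4d, 2 times for Npas4 and 1 time for Junb, and in neither window of the glucocorticoid pair Arrdc2 and Cdkn1a. In Arl4d, the matches at -26 and -23 (bases from the start) overlap on opposite strands and form the full palindrome. Over 32851 promoter windows of the same length, 20.8% held the core motif, so its presence in 3 windows is a description only. A CArG box, the site of serum response factor, stood in 1.63% of windows, and a glucocorticoid response element, both searched on either strand by the letters of their consensus, in 0.475%. Neither was found in the 5 windows shown.

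mRNAs of the postsynaptic side were lower in the L library. All 38 postsynaptic density genes in the table reached 10 CPM, with 33 lower in L and 5 higher and a median log2 ratio of -0.16. The interval lay below 0 for 28 and above 0 for 1, against 20.6% and 13.1% of all genes. Intervals are narrower for genes with more counts, so such tallies also follow abundance. Past 1.25-fold, 7 were lower and 1 was higher, against 4.65% and 4.38% of all genes. Shank1, a master scaffold of the density, had 1439 CPM in L and 1975 CPM in C (-0.46, interval -0.48 to -0.43). Shank3, its relative linked to autism in humans, had 348.5 CPM in L and 477.8 CPM in C (-0.45). Camk2a, the kinase subunit central to long-term potentiation, had 3499 CPM in L and 4661 CPM in C (-0.41, interval -0.43 to -0.40). Dlg4, which encodes PSD-95, had a log2 ratio of -0.26. Others of the list were within counting error, such as Dlg3 at 0.00 and Tanc2 at 0.03.

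Of 29 mRNAs known to travel to dendrites that reached 10 CPM, 27 were lower in L, with a median of -0.15. Camk2a, Dlg4, Dlgap3, Shank1 and Shank3 also stand in the postsynaptic density list. Ddn, which encodes dendrin, had 1756 CPM in L and 2417 CPM in C (-0.46, interval -0.49 to -0.44). Among the most abundant dendritic mRNAs, Map2 stood at -0.01 and Eef1a1 at -0.03. Both had intervals that reached 0.

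Most mRNAs of receptors and channels had ratios below 0, but few passed 1.25-fold. Glutamate receptor subunits and their auxiliary proteins had a median of -0.14 (27 of 33 lower), potassium channels -0.15 (24 of 28), sodium and calcium channels -0.16 (19 of 23) and GABA receptor subunits -0.08 (14 of 17). Past 1.25-fold lower were 1 of 33 glutamate receptor genes, 1 of 28 potassium channel genes, 0 of 23 sodium and calcium channel genes and 1 of 17 GABA receptor genes, shares near the 4.65% of all genes. Grik5, a kainate receptor subunit, was the lowest glutamate receptor gene at -0.35 (interval -0.42 to -0.28). Trans-synaptic adhesion proteins had 36 of 37 members lower with a median of -0.12, and 1 past 1.25-fold lower, also near that share. Its lowest member was Nlgn2, the neuroligin of inhibitory synapses, at -0.33. On the presynaptic side, synaptic vesicle and release genes had a median of -0.08 with 37 of 51 lower. Bsn, the active zone scaffold bassoon, stood at -0.31 and Unc13b, a vesicle priming factor, at 0.41.

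The ratios differed with base composition. In 5 equal bins of genes by GC content of the longest transcript, the median log2 ratio was 0.05 in the lowest bin, then 0.02, -0.01 and -0.05, and -0.11 in the highest. The day 20 pair showed the same order, at 0.06, 0.03, 0.01, -0.02 and -0.06. In bins by the level in the synapse fraction over the homogenate (C of day 20 over C homogenates), the day 1 medians were 0.06, 0.02, -0.02, -0.07 and -0.09, from low to high. After the ratios were centred within 20 bins of GC content, a step added after the data were seen, the medians were -0.10 for postsynaptic density genes, -0.12 for dendritic mRNAs, -0.11 for glutamate receptors and -0.10 for sodium and calcium channels. Potassium channels stood at -0.11 and vesicle and release genes at -0.06. GABA receptor subunits stood at -0.13, against -0.08 before centring, and adhesion proteins at -0.13, against -0.12. Shank1 and Shank3 stood at -0.29 and Camk2a at -0.36 after the centring. The activity list stood at -0.24 and the glucocorticoid list at -0.21, and Arc at -0.94. The part of base composition in the ratios was not tested beyond this.

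**Figure D3:**
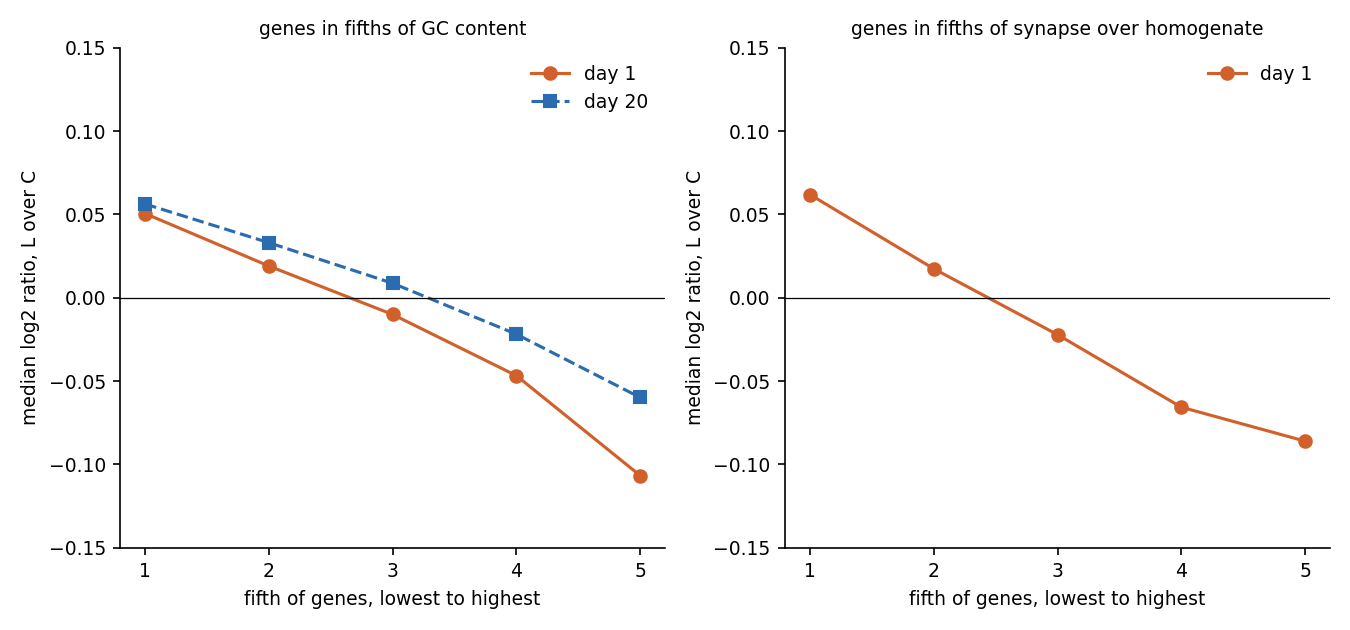
Median log2 ratio of L over C in 5 equal bins of genes, by GC content of the longest transcript (left, days 1 and 20) and by the level in the synapse fraction over the homogenate (right, day 1). On day 1 the medians go from 0.05 in the lowest GC bin to -0.11 in the highest, and from 0.06 to -0.09 with the synapse to homogenate ratio.

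Vascular and meningeal markers were higher in the L library. Of 31 endothelial markers in the table, 23 reached 10 CPM, with 20 higher in L and 3 lower, and a median log2 ratio of 0.33. In bulk RNA, more cells of a type and more RNA per cell cannot be told apart. Past 1.25-fold, 12 were higher and 1 was lower, against 4.38% and 4.65% of all genes. Past 1.5-fold, 6 were higher, against 0.687% of all genes. Thbd, thrombomodulin of the vessel surface (chr2:148404466-148408188, minus strand), had 36.5 CPM in L and 16.1 CPM in C (1.17, interval 0.94 to 1.43). Vwf, the von Willebrand factor that endothelium stores and releases, had 92.0 CPM in L and 51.1 CPM in C (0.85, interval 0.71 to 0.99). Cldn5, the tight junction claudin of the blood-brain barrier, had 19.4 CPM in L and 12.1 CPM in C (0.67, interval 0.38 to 0.98). Pecam1 stood at 0.69, Kdr at 0.65 and Tek at 0.80.

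Not all barrier genes followed. Mfsd2a, the lipid transporter of brain endothelium, had 26.4 CPM in L and 37.6 CPM in C (-0.51, interval -0.72 to -0.31). Slc2a1, the glucose transporter of the barrier and also a member of the glucocorticoid list, stood at -0.21. Occludin (Ocln) stood at -0.21 with an interval of -0.43 to 0.00. Pericyte and smooth muscle markers had 10 of 11 members higher and a median of 0.26. Acta2, smooth muscle actin, stood at 0.66 and Pdgfrb, the pericyte receptor, at 0.12.

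Meningeal and fibroblast markers had 29 of 33 members at 10 CPM higher in L, with a median of 0.37. Of them 21 were past 1.25-fold higher and 0 lower, against 4.38% and 4.65% of all genes. Past 1.5-fold, 8 were higher, against 0.687%, and the interval lay above 0 for 27, against 13.1%. Gjb2, a connexin of the meninges that also stands in the astrocyte list, had 27.7 CPM in L and 14.6 CPM in C (0.92, interval 0.67 to 1.19). Itih2 stood at 0.86, Serping1 at 0.72 and Fmod, fibromodulin of the matrix, at 0.70. Ptgds, the prostaglandin D synthase of the leptomeninges and by far the most abundant member, had 1202 CPM in L and 750.8 CPM in C (0.68, interval 0.64 to 0.72), and was named after its values were seen. The fibrillar collagen Col1a1 stood at -0.03 and Col1a2 at 0.17, so the list was not uniform. Summed over all its members, the list held 3373 CPM in L and 2493 CPM in C.

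Choroid plexus and ependymal markers were higher by less, with 15 of 19 higher and a median of 0.17. Ttr, transthyretin of the choroid plexus, had 4742 CPM in L and 4205 CPM in C (0.17). Microglia markers had 19 of 24 higher and a median of 0.17. Gpr34, a receptor of microglia, stood at 0.77 and C1qa, of the complement cascade, at 0.25. Nrros, which microglia use to activate TGF-beta, went the other way, with 6.78 CPM in L and 14.2 CPM in C (-1.05, interval -1.46 to -0.68). Mrc1, a marker of the macrophages that line vessels and meninges, had 40.8 CPM in L and 25.2 CPM in C (0.69, interval 0.49 to 0.90), and belongs to a list added after the data were seen. Interferon-induced and antigen presentation genes had 8 of 10 members higher and a median of 0.23. H2-D1, a class I molecule, had 34.5 CPM in L and 22.1 CPM in C (0.64, interval 0.42 to 0.87). 

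Astrocyte and oligodendrocyte markers differed little. The astrocyte list had a median of -0.03 (11 of 25 higher), which was 0.02 with library totals alone and 0.01 with GC centring, with Gfap at -0.12. The oligodendrocyte list had a median of -0.06 (8 of 24 higher), with Mbp, the myelin basic protein, at 9952 CPM in L and 10242 CPM in C (-0.04, and 0.01 when scaled by library totals alone). Dentate gyrus granule cell markers had a median of -0.12, CA1 markers -0.13 and CA2 and CA3 markers -0.16. Past 1.25-fold lower were 6 of 19, 0 of 14 and 2 of 19 of these members, against 4.65% of all genes. Past 1.25-fold higher were 0, 1 and 1, against 4.38%.

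**Figure D4:**
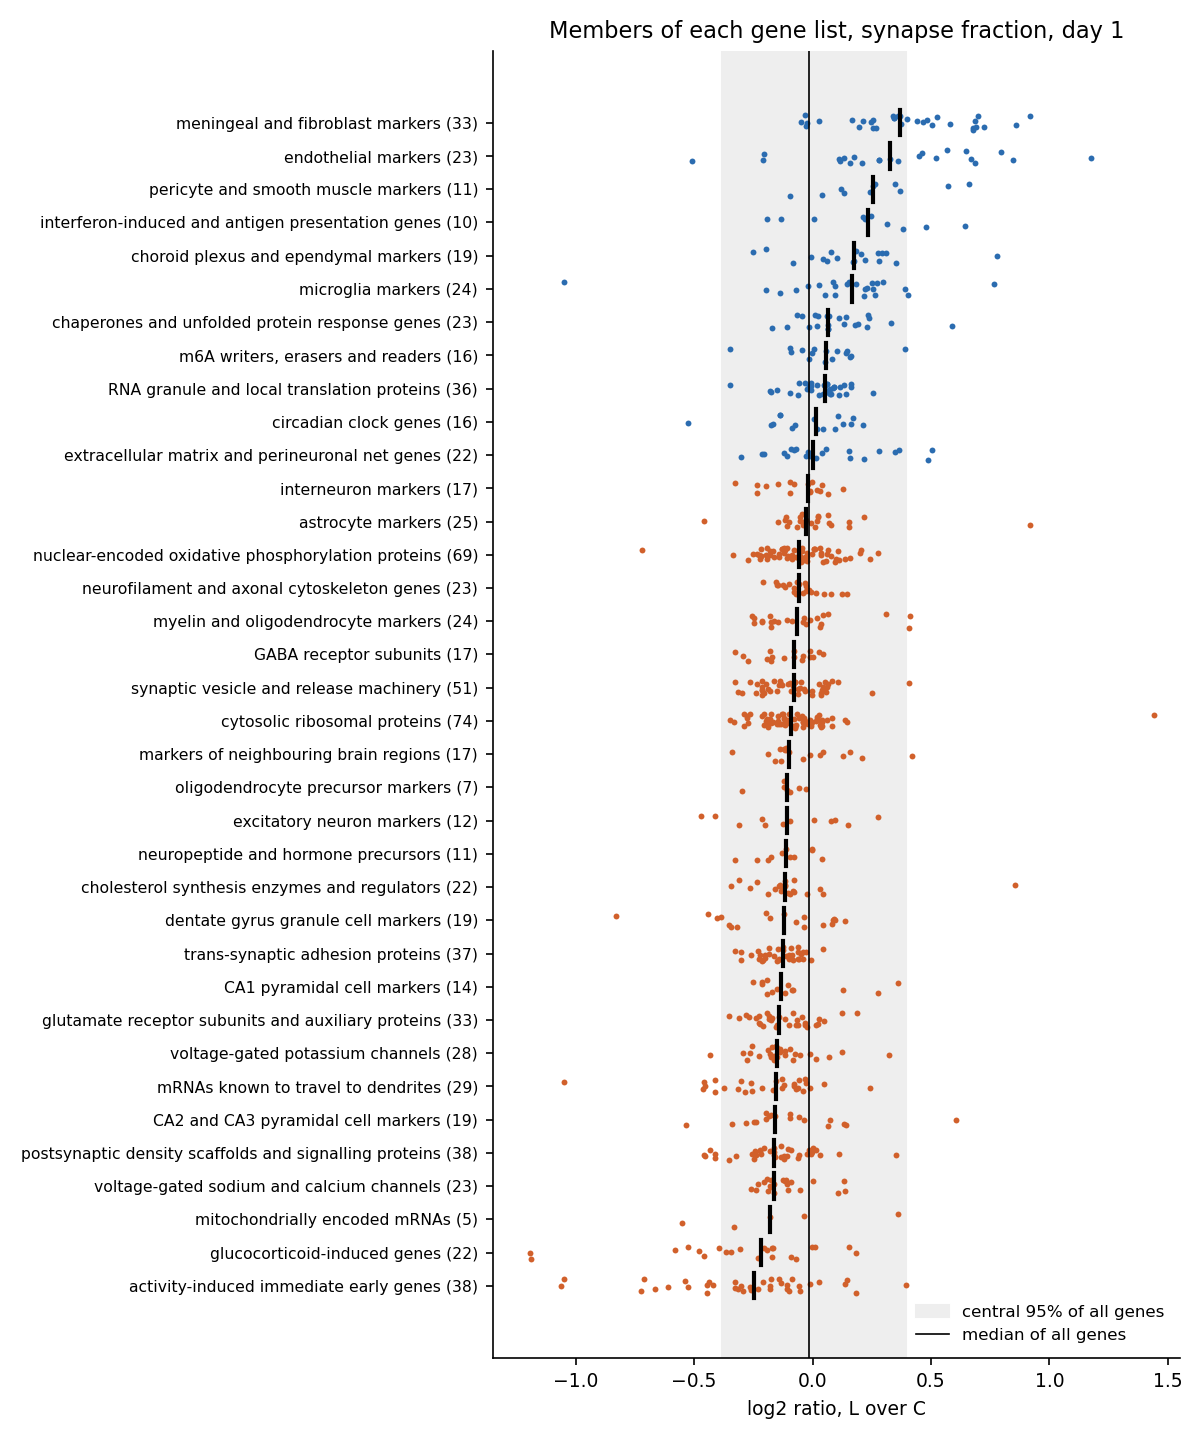
Log2 ratio of L over C on day 1 for each member at 10 CPM or more of every list with at least 5 such members, with the number of members in brackets and the list median as a black bar. The grey band is the central 95% of all genes, -0.38 to 0.39. Medians run from 0.37 for meningeal markers at the top to -0.25 for activity-induced genes at the bottom. Blue marks lists with a median above 0 and orange those below 0.

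The label of the fraction was checked against markers. On library totals, mRNAs known to travel to dendrites summed to 29264 CPM in the L library and 32978 CPM in the C library of the fraction, against 26756 to 27192 CPM in the L homogenates and 24994 to 27250 CPM in the C homogenates. Postsynaptic density genes summed to 16244 CPM in L, within the 15468 to 17747 CPM of the 6 homogenates, and to 18874.5 CPM in C, above them. Only 5 of the 13 listed mitochondrially encoded mRNAs are in the day 1 table. Summed, these were far higher in the fraction, at 25028 CPM in L and 27114 CPM in C, against 3143 to 5158 CPM over all 6 homogenates. Of this, mt-Nd4 alone gave 15544 CPM in L and 17011.5 CPM in C. Oligodendrocyte markers summed to 18277 CPM in L and 17345 CPM in C, against 4286 to 7628 CPM over the homogenates. Of the day 1 sums, Enpp2, also in the choroid plexus list, gave 4856 CPM in L and 3788 CPM in C. Microglia markers summed to 1665 CPM in L and 1428 CPM in C, against 514 to 627 CPM. In both arms the fraction held these glial and mitochondrial lists at a higher share than any homogenate, and the dendritic list at a slightly higher one. Trans-synaptic adhesion genes were also higher, at 10226 CPM in L and 10976 CPM in C, against 8155 to 8335 CPM over the homogenates. Other synaptic lists were not higher in both arms. GABA receptor genes summed to 4781 CPM in L, within the 4402 to 4783 CPM of the homogenates, and to 5112 CPM in C, above them. Sodium and calcium channel genes summed to 6438 CPM in L, within 6089 to 6729 CPM, and to 6906 CPM in C, above that range. Vesicle and release genes summed to 20202 CPM in L and 21156 CPM in C, against 19952 to 21997 CPM over the homogenates. Glutamate receptor genes summed to 7220 CPM in L and 7615 CPM in C, against 7386 to 8331 CPM. Potassium channel genes lay below every homogenate, at 4069 CPM in L and 4366 CPM in C, against 4527 to 4928 CPM. The day 6 synapse pair differed from this. Its glutamate receptor genes summed to 15618 CPM in L and 15587 CPM in C, and its sodium and calcium channel genes to 15062 and 15379 CPM. GABA receptor, adhesion, potassium channel and vesicle genes also lay above every homogenate there. Its dendritic mRNAs, at 23620 CPM in L and 21629 CPM in C, and postsynaptic density genes, at 11274 and 9284 CPM, lay below every homogenate. The homogenates are of day 6 and in a table of their own. For the day 1 pair, day, table and fraction thus cannot be told apart, and for the day 6 pair, table and fraction cannot.

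The same genes were read in the other pairs. On day 20, when 51.1% of genes lay above 0 and 48.9% below, the activity list had 27 of 37 members higher in L and a median of 0.16, and the glucocorticoid list a median of 0.10. Arc stood at 0.19 on day 20 and Sgk1 at 0.24. The endothelial list was higher in L on both days, at 0.33 on day 1 and 0.16 on day 20, whereas the meningeal list was at 0.37 on day 1 and -0.29 on day 20 and the choroid plexus list at 0.17 and -0.34. None of the 19 choroid plexus members was higher in L on day 20. The day 6 pair was much wider, with 43.8% of genes past 1.25-fold, and its list medians were 0.07 for the activity list and 0.10 for the glucocorticoid list. Of the genes past 1.5-fold, the 64 higher in L on day 1 and the 20 on day 20 (0.215% of 9307) shared 1 gene, and the 42 lower on day 1 and the 60 on day 20 (0.645%) shared 2. Fmod, Ptgds, Rbp4 and Sgpp2 were past 1.5-fold higher on day 1 and past 1.5-fold lower on day 20, which is 6.25% of the day 1 set and 6.67% of the day 20 set.

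**Figure D5:**
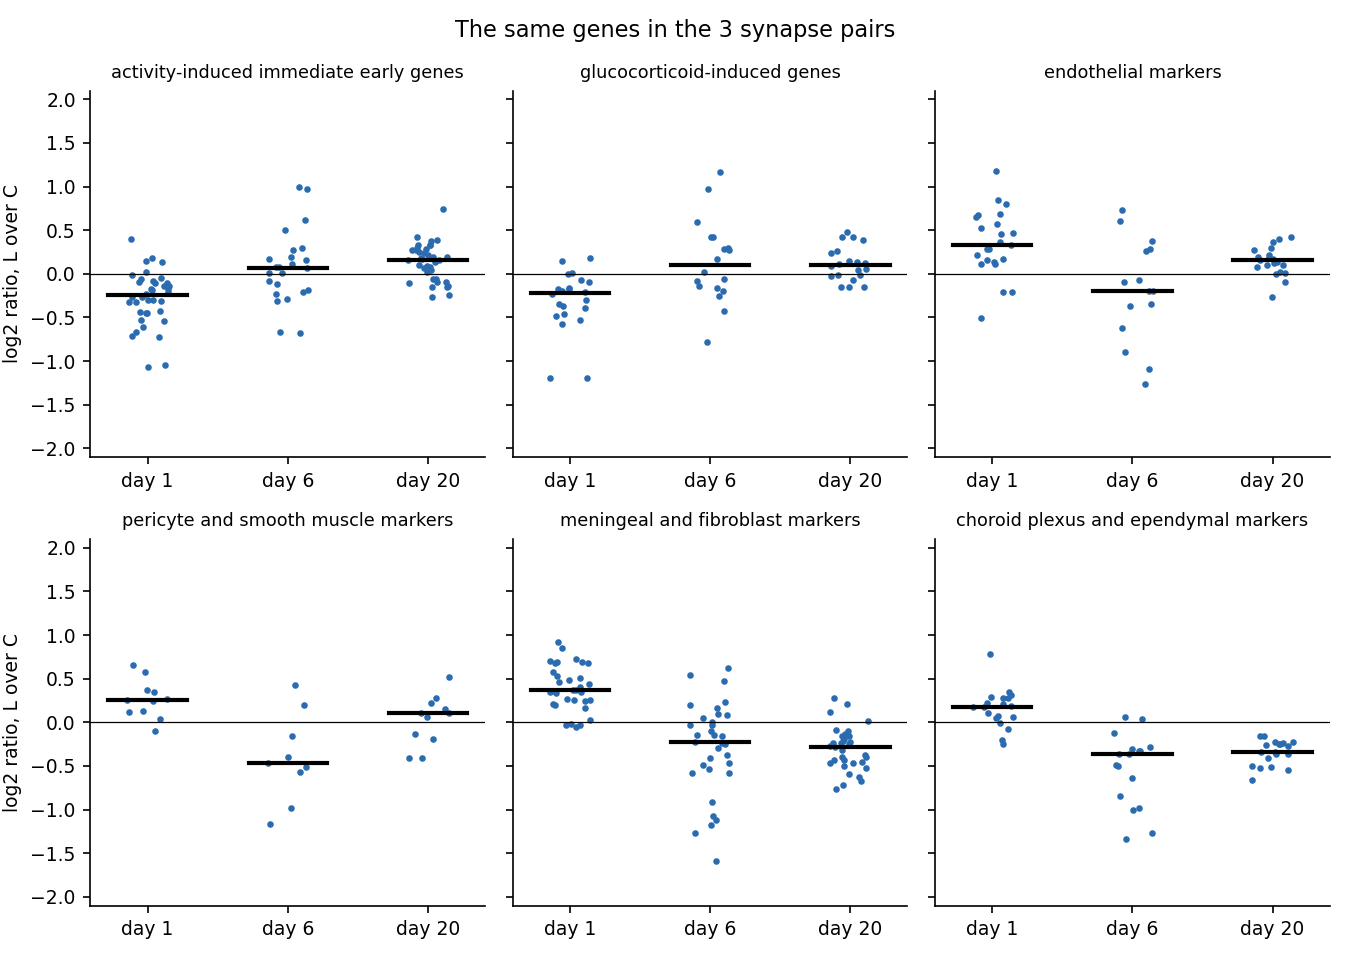
Log2 ratio of L over C on days 1, 6 and 20 for the members of 6 lists that reached 10 CPM on day 1 and in that day's pair, with the median as a bar. The activity list lies below 0 on day 1 (-0.25) and above it on day 20 (0.16), and the meningeal list above 0 on day 1 (0.37) and below it on day 20 (-0.29).

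The 4 libraries of days 1 and 20 were set side by side on library totals, since each day is a table of its own. Arc had 113.5 CPM in L of day 1, 227.3 CPM in C of day 1, 170.5 CPM in L of day 20 and 150.7 CPM in C of day 20. The C library of day 1 was thus the highest and the L library of day 1 the lowest, with the day 20 pair between. Among the 38 activity genes, the C library of day 1 was the highest of the 4 for 21 genes (55.3%), against 21.7% of all genes. The L library of day 1 was the lowest of the 4 for 22 genes (57.9%), against 19.6% of all genes. For the glucocorticoid list the C library of day 1 was highest for 14 of 22 genes (63.6%), and the L library of day 1 lowest for 9 (40.9%).

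The meningeal list had another order. The C library of day 1 was the lowest of the 4 for 27 of 33 genes (81.8%), against 33.1% of all genes, and the C library of day 20 the highest for 28 (84.8%), against 25.1% of all genes. The L library of day 1 was the highest for 3 and the lowest for 1. Its sums were 3430 CPM in L and 2451 CPM in C on day 1, and 3008 CPM in L and 4069 CPM in C on day 20. Over the homogenates the sum ran from 757 to 2121 CPM in L and from 796 to 2550 CPM in C, a wide spread within 1 arm. For the endothelial list the L library of day 1 was the highest for 16 of 23 genes (69.6%), against 28.2% of all genes, and the C library of day 1 the lowest for 16, against 33.1% of all genes. The part of these markers in the other ratios was not tested.

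Pituitary hormone genes stood apart. Prl, prolactin, had 8.90 CPM in L and 30.6 CPM in C (-1.76, interval -2.11 to -1.47), the lowest ratio among the genes named by rule. Gh, growth hormone, had 53.2 CPM in L and 111.5 CPM in C (-1.06, interval -1.20 to -0.93). On day 20 they stood at 4.17 and 3.48. The list summed to 72.4 CPM in L and 145.9 CPM in C on day 1 on library totals, to 583.0 CPM in L and 53.4 CPM in C on day 20, and to between 1.61 and 81.5 CPM over the homogenates. Of the 6 members under 10 CPM, 3 were lower in L and 1 was higher, Pomc, with 84 counts in L and 49 in C. The other 2, Pou1f1 and Tshb, which mark pituitary cells, were at 0 in both day 1 libraries.

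Further genes among the 15 highest and 15 lowest ratios stood outside the groups above or at an edge of their list. Idi1, an isomerase of sterol synthesis, had 87.5 CPM in L and 48.3 CPM in C (0.86, interval 0.71 to 1.00), while its list of cholesterol genes had 19 of 22 members lower and a median of -0.12. Arhgap29 stood at 0.86, Mbip at 0.85, S1pr3, a sphingosine phosphate receptor, at 0.76, Mrc2 at 0.73 and the nuclear pore gene Nup85 at 0.73. Zxdb, a zinc finger gene, stood at -0.88 on day 1 and -0.71 on day 20. Cxx1b stood at 0.95 and has a near-identical relative, Cxx1a, so its counts are uncertain. Ttn, which encodes titin, had 26.5 CPM in L and 53.1 CPM in C (-0.997), Hmga1, a chromatin protein, 11.1 CPM in L and 21.4 CPM in C (-0.93), and Ndufa12, of respiratory complex I, 34.1 CPM in L and 56.2 CPM in C (-0.72). The remaining ones were Clec2d (0.74) and Kcne2 of the choroid plexus (0.78) on the higher side, and Gpr153 (-0.88) and the granule cell marker Sema5b (-0.83) on the lower. Past 2-fold, 3 of the 4 higher and 3 of the 10 lower genes were predicted genes, histones or genes with pseudogene copies, which the rule counts but does not name. Chaperones and unfolded protein response genes, a list not limited to the endoplasmic reticulum, were slightly higher, with 18 of 23 higher and a median of 0.07. Hspa5, which encodes BiP, stood at 0.24 (interval 0.19 to 0.29), Pdia6 at 0.33 and Creld2 at 0.59. Cytosolic ribosomal protein genes had 58 of 74 lower and a median of -0.09.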

How the data were processed

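Hippocampal total RNA lost its ribosomal RNA and was primed at random for directional (dUTP) libraries, per the labels' protocols. The submitters' processing notes name HISAT2 2.0.4, cutadapt 1.9.3, HTSeq 0.9.1, edgeR and the build mm10. Neither the annotation release nor the strand setting is given in the sources used here, so reads of overlapping antisense genes cannot be told apart. The authors deposited raw counts per gene in a table for each day's pair.

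From these counts, TMM factors were computed over each table with edgeR 4.0.16 in R 4.3.3 (1.02 for L and 0.983 for C on day 1). Log2 ratios of L over C took a prior count of 2, for genes averaging 10 CPM or more. Intervals are exact Clopper-Pearson 95% intervals of the L share of a gene's counts, carried to the log2 ratio with scipy 1.17.1. They cover counting error only, as no molecular identifiers are named. They were tested on simulated data that held counting error alone. That test checks the calculation, and does not bear on duplicate reads or the spread between animals. With 1 library per arm, no p-value was computed. GC content and coordinates came from GENCODE M21 (GRCm38, the same build as mm10), with GC content for 99.7% of genes. Promoters came from RefSeq (GRCm38.p6).

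The 39 gene lists and the members described were chosen with earlier results of these data known, and 1 list, the 1.25-fold threshold and the GC centring were added after the data were seen. Genes were named by a rule: the 15 highest and 15 lowest ratios, leaving out predicted genes, histones and genes with pseudogene copies, up to 6 members with the largest ratios of a list described, and a fixed set of activity, synaptic and marker genes. Some members are named for contrast, outside the rule. Alternatives tried were other scalings, floors and prior counts.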

Additional observations from a re-analysis of the deposited data

Results flagged for a closer look

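The results below had opposite directions in the day 1 and day 20 synapse pairs, with 1 library per arm on each day. The difference between days was not tested, and the smaller values lie within the range of most genes. Of the list medians, activity-induced genes stood at -0.25 on day 1 and 0.16 on day 20 and glucocorticoid-induced genes at -0.22 and 0.10. The 5 of 13 listed mitochondrially encoded mRNAs that the table holds stood at -0.18 on day 1 and 0.23 on day 20. Meningeal and fibroblast markers stood at 0.37 on day 1 and -0.29 on day 20, and choroid plexus and ependymal markers at 0.17 and -0.34.

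Among genes lower in L on day 1, Arc stood at -1.05 on day 1 and 0.19 on day 20, Junb at -0.71 and 0.33, Egr1 at -0.54 and 0.25, Sgk1 at -0.58 and 0.24, Camk2a at -0.41 and 0.12 and Homer1 at -0.11 and 0.21. Ttn stood at -0.997 on day 1 and 0.40 on day 20, and Sema5b at -0.83 and 0.42. Mbp stood at -0.041 on day 1 and 0.17 on day 20. The widest reversal was that of the pituitary hormones, with Prl at -1.76 on day 1 and 4.17 on day 20 and Gh at -1.06 and 3.48.

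Among genes higher in L on day 1, Thbd stood at 1.17 on day 1 and -0.27 on day 20, Gjb2 at 0.92 and -0.49, Arhgap29 at 0.86 and -0.32 and Idi1 at 0.86 and -0.57. Kcne2 stood at 0.78 on day 1 and -0.34 on day 20, S1pr3 at 0.76 and -0.43 and Ttr at 0.17 and -0.34.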

How the results depend on the processing

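The counts of genes followed the floor on level. At a floor of 20 CPM, 408, 42 and 5 genes lay past 1.25-fold, 1.5-fold and 2-fold. At 5 CPM the counts were 1357, 231 and 32, and with no filter beyond a count above 0 they were 5462, 2802 and 1043. Scaling by library totals alone set the median of all genes at 0.03 and moved the medians of dendritic mRNAs to -0.11 and of mitochondrially encoded mRNAs to -0.13. It turned Mbp to 0.0071 and mt-Nd5 to 0.013. GC centring moved mitochondrially encoded mRNAs to -0.25. Pituitary hormone genes stood at -1.06 with a floor of 20 or 5 CPM and at -0.51 with no filter, and red blood cell genes at -0.35 with no filter. The median of astrocyte markers turned to 0.02 with library totals and 0.01 with GC centring, that of interneuron markers to 0.03 with library totals and that of clock genes to -0.03 with no filter. The other list medians kept their sign under each setting, and activity-induced genes ranged from -0.26 to -0.20. Median-of-ratios scaling and a prior count of 0.5 moved none of the 212 named genes by more than its counting interval's half-width. They moved none of the 40 medians by more than the median half-width of the list's members. The median-of-ratios factors were 1.0167 for L and 0.9836 for C, against 1.0169 and 0.9833 with TMM. That scaling could thus hardly move any ratio. Past 2-fold, 10 genes were lower, against 6 with GC centring. No paired analysis was possible because each arm has 1 library on day 1, and for the same reason no library could be left out. The cause of these moves was not tested, beyond the number of genes that each floor keeps. At this depth a gene's counting interval had a median half-width of 0.17.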

Other observations

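Several further lists had medians below the -0.01 of all genes. Neuropeptide and hormone precursors stood at -0.11 (10 of 11 lower), oligodendrocyte precursor markers at -0.11 (7 of 7 lower) and red blood cell genes at -0.17 (3 of 4 lower). Excitatory neuron markers stood at -0.11 (7 of 12 lower), summing to 5956 CPM in L and 7379 CPM in C. Of these sums, Camk2a, also in the postsynaptic density and dendritic lists, gave 3499 CPM in L and 4661 CPM in C. Axonal cytoskeleton genes had a median log2 ratio of L over C of -0.06 (18 of 23 lower), nuclear-encoded oxidative phosphorylation genes -0.06 (48 of 69 lower) and circadian clock genes 0.01 (9 of 16 higher), with Per1 at -0.52 and Nr1d2 at 0.22. RNA granule and local translation proteins stood at 0.05 (23 of 36 higher), with Tsc2, a brake on mTOR signalling, at -0.35 (interval -0.45 to -0.25) and Pura, which binds dendritic RNA, at 0.26 (interval 0.20 to 0.31). m6A writers, erasers and readers stood at 0.06 (10 of 16 higher). Extracellular matrix genes had a median of 0.00. Of 22 members, 4 were past 1.25-fold higher and 0 lower, against 4.38% and 4.65% of all genes.

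The table holds 5 of the 13 listed mitochondrially encoded mRNAs. Of these, 4 were lower in L with intervals below 0, against 20.6% of all genes, and mt-Nd3 was higher. mt-Nd4, the most abundant, had 15286 CPM in L and 17300 CPM in C (-0.18) and mt-Nd5 5885 CPM in L and 6032 CPM in C (-0.04, and 0.013 with library totals alone). mt-Nd4l had 313.7 CPM in L and 460.1 CPM in C (-0.55) and mt-Co3 2798 CPM in L and 3525 CPM in C (-0.33), while mt-Nd3 had 329.1 CPM in L and 256.2 CPM in C (0.36). Gm8226, a predicted gene, had 0 counts in L and 690 in C, and Gm21685 had 41 in L and 350 in C. Both were named after their values were seen.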
